A study of Mus musculus with 5 samples.

Results

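Stromal progenitor nuclei of mouse mesenteric white fat were the subject: 869 nuclei selected on their RNA content from 19768 retained nuclei of 1 mesenteric library, out of 76040 nuclei deposited for 5 fat depots. A nucleus was selected when at least 200 genes were detected, at most 10% of its unique molecular identifiers (UMIs, 1 per captured RNA molecule) were mitochondrial, and at least 4 UMIs from at least 3 genes came from Pdgfra, Lama2, Bicc1, Abca8a, Col6a3, Scara5 and Fbn1. It was dropped when it held more than 1 UMI over Acvr1c, Flt1, Ptprb, Mrc1, Upk1b, Bank1 and Skap1, more than 2 of Myh11, or any of Kcnn3. The same rule chose the stromal nuclei of the other fats, and every level compared below comes from nuclei chosen in this way.

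The study profiled single nuclei of white fat from 10-week-old male mice on a chow diet, after perfusion with a heparin solution to clear blood. The mesenteric library (MWAT) pooled tissue from 10 mice, the subcutaneous (SWAT), epididymal (EWAT) and perirenal (NWAT) libraries from 6 mice each, and the peri-heart library (HWAT) from 20 mice, with adjacent lymph nodes removed from SWAT and MWAT. All mice were wild type, and the protocol gives C57BL/6J for every mouse, while the strain field differs from it in MWAT (C57BL/7J), in HWAT (C57BL/9J) and in NWAT (C57BL/8J) and repeats it for SWAT and EWAT. Each depot was 1 pooled library, so no difference between depots could be tested, and the intervals given here cover counting error alone: depot, library and pool cannot be told apart.

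Adipose stromal progenitors are fibroblast-like cells that carry the PDGF receptor alpha, build the collagen and elastic framework of fat and can turn into new adipocytes. In several depots they are described as a less committed, Dpp4-bearing cell of the interstitium, a committed preadipocyte that transcribes Pparg and Lpl, and an F3-bearing cell reported to restrain adipogenesis. Mesenteric fat hangs between gut and body wall inside a mesothelial sheet, and its stroma arises from the splanchnic mesoderm that also makes the gut wall, whereas limb and flank fat arises elsewhere in the mesoderm. Transcription factors laid down in the embryo, among them the Hox genes, Nkx2-3, Hand2, Tcf21 and the T-box factors, record such positions.

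The stromal nuclei made up 4.40% of retained MWAT nuclei (exact Clopper-Pearson 95% interval 4.11 to 4.69), against 8.54% in SWAT, 6.41% in NWAT, 5.59% in EWAT and 3.46% in HWAT, that is 1051, 819, 1034 and 433 nuclei. Depth bears on this share, since a fixed number of UMIs is harder to reach in a shallow nucleus: the median was 1268 UMIs in MWAT stromal nuclei and 1842 to 2369 elsewhere. The rule was also applied to nuclei with at least 1000 UMIs, each thinned to 1000. The share of these deeper nuclei was 3.73% in MWAT, 6.80% in SWAT, 5.41% in NWAT, 5.01% in EWAT and 1.85% in HWAT. The order of the 5 fats was as before. Shallower nuclei left out numbered 5917 in MWAT, 2225 in SWAT, 928 in NWAT, 2375 in EWAT and 2506 in HWAT. In MWAT 1312 nuclei passed the requirement for stromal UMIs. The genes of other cell types then removed 202 of them, Myh11 87 and Kcnn3 154, while in the other libraries Myh11 removed at most 7 and Kcnn3 at most 15. MWAT and the other libraries shared 56 to 87 cell barcodes, and 1 barcode belonged to a selected nucleus in both MWAT and HWAT. Nuclei just inside the limit, with 4 marker UMIs, numbered 116 and gave 1737 UMIs per 1000000 (CPM) summed over Efna5, Col14a1, Nox4, Slit2 and Fndc1. The 97 nuclei just outside it, with 3, gave 1942 CPM for the same genes.

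Start regions of 3 position-marking genes are shown because their levels separated MWAT from the other fats in opposite directions: Nkx2-3 and Hand2 were highest in MWAT, and Tbx18 was nearly missing there. The sequences are the 250 bases before the annotated start (RefSeq, GRCm38.p6), written on the gene's strand, at chr19:43612075-43612324 on the plus strand for Nkx2-3, chr8:57320733-57320982 on the plus strand for Hand2 and chr9:87731261-87731510 on the minus strand for Tbx18. Capitals mark 5 short motifs searched on both strands: the CCAAT box, the GC box GGGCGG, the TATA motif TATAAA, the homeobox-type motif TAATTA and the GATA-type motif AGATAA.
Nkx2-3: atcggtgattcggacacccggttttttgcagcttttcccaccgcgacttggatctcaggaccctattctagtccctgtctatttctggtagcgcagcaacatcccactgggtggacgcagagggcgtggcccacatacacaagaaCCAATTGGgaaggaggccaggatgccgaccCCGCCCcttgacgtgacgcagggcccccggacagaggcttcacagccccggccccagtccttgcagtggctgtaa
Hand2: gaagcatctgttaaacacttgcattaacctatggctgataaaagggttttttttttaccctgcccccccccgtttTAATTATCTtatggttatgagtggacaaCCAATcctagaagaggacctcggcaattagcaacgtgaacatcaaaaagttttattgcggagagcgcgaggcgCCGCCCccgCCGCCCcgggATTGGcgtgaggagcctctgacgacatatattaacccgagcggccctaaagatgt
Tbx18: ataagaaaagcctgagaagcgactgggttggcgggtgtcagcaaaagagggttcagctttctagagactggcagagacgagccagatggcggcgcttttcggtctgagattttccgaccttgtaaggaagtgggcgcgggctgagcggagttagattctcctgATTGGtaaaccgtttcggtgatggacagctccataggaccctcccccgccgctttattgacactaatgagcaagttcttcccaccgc
The Nkx2-3 window held CCAAT at -105 and, overlapping it on the other strand, at -102, and GGGCGG at -75, counted from the start site. The Hand2 window held CCAAT at -147 and -55, GGGCGG at -74 and -65, and TAATTA at -175 overlapping AGATAA at -172. The Tbx18 window held CCAAT at -87. Of 32851 windows of the same length, 33.9% held CCAAT, 32.7% GGGCGG, 12.4% TATAAA, 4.84% TAATTA and 9.99% AGATAA, so the most frequent of these matches are common ones. A match describes the letters only.

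The label was first set beside its 6 marker genes, of which Pdgfra also served in the rule. These markers were chosen with earlier results of these data known, so their levels describe the nuclei and are no independent check. Levels are in CPM, counts of a gene per 1000000 summed UMIs of the selected nuclei, and gene length was not corrected for, so levels are compared between depots and not between genes. Pdgfra, the receptor that defines these cells, stood at 939.9 in MWAT, 831 in EWAT, 1495 in SWAT, 783 in NWAT and 518 in HWAT, and at 91.4 in the other retained MWAT nuclei. Col14a1, a collagen that decorates other collagen fibres, stood at 757 in MWAT, 419 in EWAT, 62.6 in SWAT, 333 in NWAT and 211 in HWAT. Its MWAT level was 1.81 times that of EWAT, the next highest (exact conditional 95% interval 1.65 to 1.98), and 11.2 times that of the other MWAT nuclei.

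Nox4, an enzyme that makes hydrogen peroxide, was at 470.4 in MWAT, 162 in EWAT, 259 in SWAT, 307 in NWAT and 47.6 in HWAT, and its MWAT level was 23.0 times that of the other MWAT nuclei. Slit2, a secreted guidance cue read by Robo receptors, was at 619 in MWAT, 387 in EWAT, 80.0 in SWAT, 87.2 in NWAT and 115 in HWAT. It stood 2.80 times above the other MWAT nuclei, among which smooth muscle nuclei held 529. Fndc1, a fibronectin-domain protein of the matrix, was at 531 in MWAT, 261 in EWAT, 234 in SWAT, 349 in NWAT and 612 in HWAT, the one of the 6 with a higher level in HWAT than in MWAT; Pdgfra was higher in SWAT.

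Efna5, an ephrin that binds Eph receptors on neighbouring cells, reached 772 in MWAT, 394 in EWAT, 123 in SWAT, 360.1 in NWAT and 347 in HWAT. The depot difference is large, yet Efna5 did not set these nuclei apart within their own library: the other MWAT nuclei held 662 and mesothelial nuclei 1453. Of the 5 markers that the rule did not use, 4 stood at least 2.80 times above the other MWAT nuclei, and Efna5 stood at 1.17 times. The excess of Pdgfra was fixed by the rule.

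**Figure D1:**
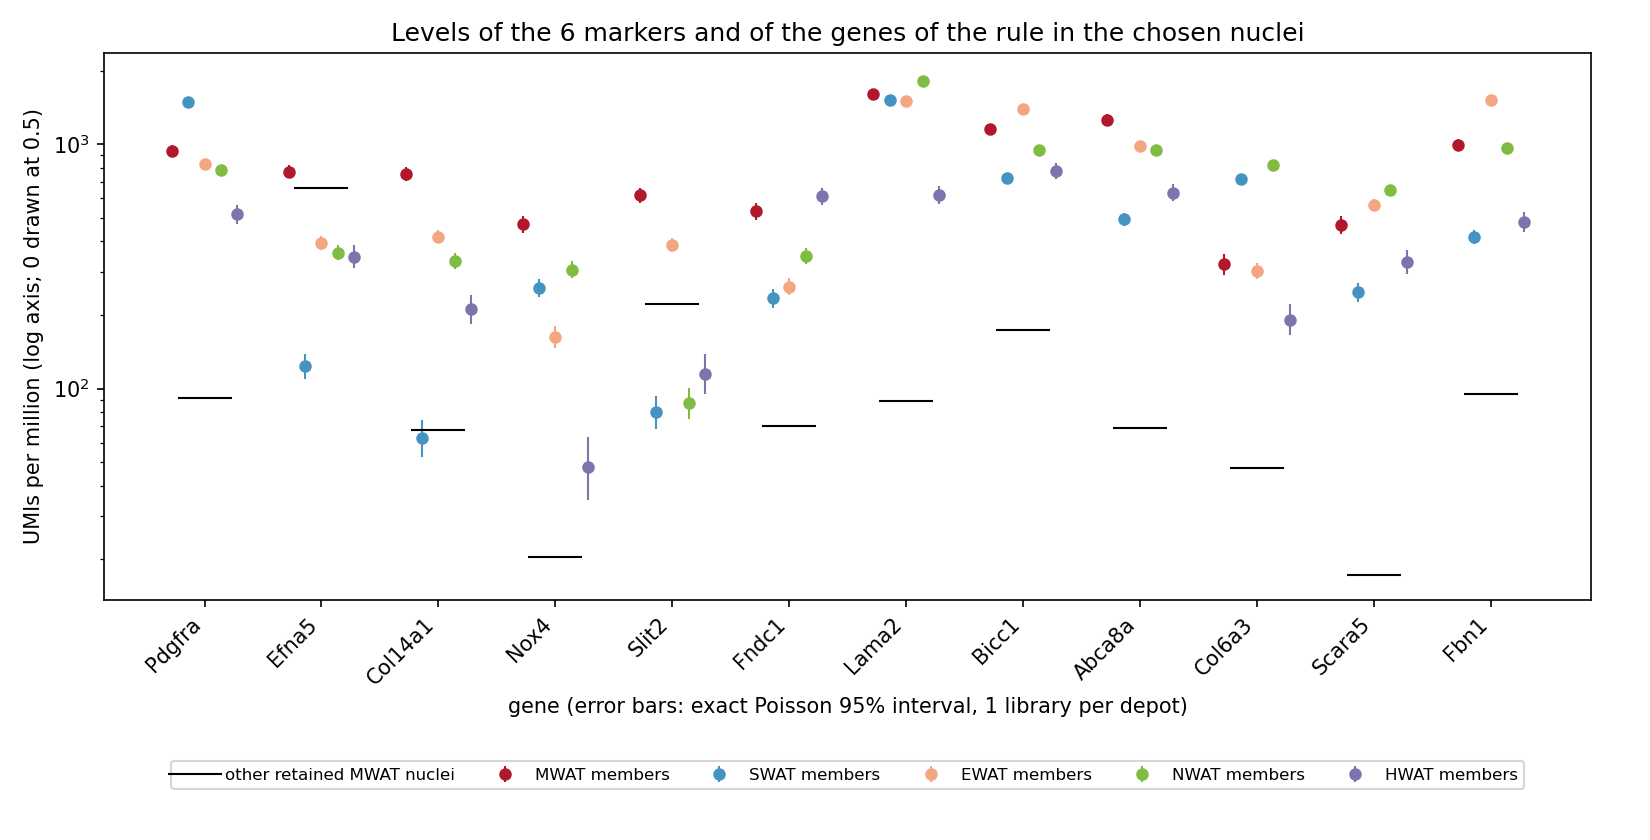
CPM (log axis) of the 6 markers and the other 6 genes of the rule in selected nuclei of each library, with exact Poisson 95% intervals; black lines give the other retained MWAT nuclei. MWAT (red) is highest for Efna5, Col14a1, Nox4, Slit2 and Abca8a, and the black line for Efna5 (662) lies close to its MWAT point (772).

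RNA of other cell types was present in the selected nuclei and moved with the depot. A list of 12 smooth muscle genes summed to 1155 CPM in MWAT stromal nuclei and to 196 to 442 in the other fats, beside 6455 in the other MWAT nuclei. A list of 16 gut lining genes summed to 520.0 in MWAT and to 3.22 to 64.2 elsewhere, beside 1755 in the other MWAT nuclei, with 15 of the 16 detected and Cdx2 at 0. A list of 12 mesothelial genes summed to 1929 in MWAT, 1323 in EWAT, 21.6 in SWAT, 525 in NWAT and 2212 in HWAT. The adipocyte list was at 2074 in MWAT, within the 1315 to 3088 of the other fats, and the neuron list at 127 against 13.3 to 44.5. Of 9 T or NK cell genes 7 were detected, with a sum of 24.8 against 6.32 to 13.5 in the other fats, and Cd3e was at 0. Of 10 B or plasma cell genes 8 were detected, with a sum of 5526 that was nearly all Ebf1 (5385), a gene that stromal nuclei also transcribe, and Ms4a1 was at 0. How much of the depot differences below rests on such RNA was not tested. For some genes, not all, the level in other MWAT nuclei or in a narrower selection is given as well. That narrower selection was added after the data were seen. It leaves out nuclei that, when the selected nuclei of all libraries were clustered together, fell into clusters with over 4 times the usual level of another class's markers. It kept 674 of the 869 MWAT nuclei and left out 22.4% there, 16.7% in EWAT, 10.2% in SWAT, 10.7% in NWAT and 25.6% in HWAT. In the MWAT nuclei kept, the mesothelial sum was 962 and the adipocyte sum 1737. The smooth muscle sum was still 1125.5, the gut lining sum 607 and the neuron sum 120. The narrower selection is thus no control for smooth muscle, gut lining or neuron RNA.

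The position code of MWAT stromal nuclei was led by Nkx2-3, a homeobox factor of the gut and spleen mesenchyme (GRCm38, chromosome 19, 43612325 to 43615892). It was counted 58 times in 56 MWAT nuclei, a level of 46.5 (exact Poisson 95% interval 35.3 to 60.1), and 0 times in the selected nuclei of SWAT, EWAT, NWAT and HWAT. With 3 counts, the floor used for ratios, put in place of each 0, the highest other level was 3.11, in HWAT. The MWAT level was 14.96 times that value (interval 4.87 to 74.6), a ratio set by the floor. The gene was not particular to the stroma of its library. The other MWAT nuclei held 31.9, with 21.0 in adipocyte, 38.2 in mesothelial, 69.6 in endothelial and 21.1 in smooth muscle nuclei. At 1000 UMIs per nucleus, 4.51% of MWAT stromal nuclei and 1.64% of adipocyte nuclei held an Nkx2-3 UMI. Those shares leave out 248 stromal and 154 adipocyte nuclei with fewer UMIs. Without thinning the shares were 6.44% and 3.83%, at median depths of 1268 and 1726 UMIs. In the narrower selection its level was 53.0.

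Hand2, a basic helix-loop-helix factor of splanchnic mesoderm, was at 56.1 in MWAT, 3.16 in EWAT, 0 in SWAT, 1.45 in NWAT and 16.6 in HWAT. It was higher still in smooth muscle (156) and mesothelial nuclei (106) of the library. Its antisense neighbour Hand2os1 stood at 148 in MWAT and 0 to 11.4 elsewhere, and how reads of that overlapping pair were assigned is not given in the sources used here. Tcf21, a related factor of visceral fibroblasts and epicardium, was at 96.2 in MWAT, 68.6 in EWAT, 0.460 in SWAT, 6.27 in NWAT and 9.32 in HWAT. MWAT and EWAT stood close together for Tcf21 and far above the other fats. Unlike Nkx2-3 and Hand2, Tcf21 was 4.77 times higher in the stromal nuclei than in the other MWAT nuclei (interval 3.89 to 5.82).

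Wt1, the Wilms tumour factor of mesothelium and visceral fat precursors, was at 241 in MWAT, 186 in EWAT, 0 in SWAT, 83.4 in NWAT and 394 in HWAT. Nuclei with mesothelial markers held 62.1% of its MWAT counts, in the fourth of the groups described below, and in the narrower selection its level was 118, the same as in EWAT. Isl1, a LIM homeobox factor, was at 78.5 in all MWAT stromal nuclei and at 15.8 in the narrower selection. Tbx18, a T-box factor of mesenchyme around the urinary tract, heart and somites, showed the reverse pattern. It was counted 3 times in MWAT, a level of 2.40 (interval 0.496 to 7.03), against 18.1 in EWAT, 39.1 in SWAT, 35.7 in NWAT and 34.2 in HWAT. None of the 3 counts was left in the narrower selection.

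Of 31 visceral and splanchnic factors, 18 had at least 20 counts over the 5 libraries. Of these, 7 stood at least 2-fold above the mean of the other fats and 2 at least 2-fold below it, with a median log2 difference of 0.83. Over all 13797 genes with that many counts, 8.16% were 2-fold above that mean and 4.23% 2-fold below it, with a median of 0.09.

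The Hox genes, which mark position along the body axis, went both ways. Of 39 Hox genes, 23 had enough counts, with 12 at least 2-fold above the mean of the other fats and 5 at least 2-fold below. All 7 HoxB genes counted were among the 12, and 6 of the 7 were highest in MWAT. All 3 HoxD genes counted were among the 12 too, with 2 above in the narrower selection. HoxA was divided, with 2 of 7 genes above and 2 below, and HoxC had 0 of 6 above and 3 below. Hoxb5 was at 34.5 in MWAT, 9.03 in EWAT, 8.28 in SWAT, 5.30 in NWAT and 2.07 in HWAT, 3.82 times the next highest fat (interval 2.20 to 6.85). Hoxb4 was at 48.9 in MWAT and 5.30 to 18.5 elsewhere, a ratio of 2.64 to the next highest. Hoxb3 and Hoxb6, at 62.5 and 69.7, were 2.07 and 2.31 times the next highest fat.

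The more posterior genes ran the other way. Hoxa9 was at 0 in MWAT, 3.16 in EWAT, 80.0 in SWAT, 73.3 in NWAT and 1.04 in HWAT. Hoxa10 was at 0 in MWAT, 2.26 in EWAT, 31.7 in SWAT, 25.5 in NWAT and 0 in HWAT, and Hoxc10 at 0 in MWAT, 0.451 in EWAT, 35.0 in SWAT, 21.7 in NWAT and 0 in HWAT. For all 3 genes SWAT and NWAT were high, and MWAT, EWAT and HWAT were at or near 0. The HoxB code was shared by the whole MWAT library: the other MWAT nuclei held 35.1 of Hoxb5, 44.0 of Hoxb4, 56.8 of Hoxb3 and 66.6 of Hoxb6, all close to the stromal level. All 7 HoxB genes were also 2-fold above the mean in the narrower selection. The median log2 difference of the whole Hox list was 1.46, but 0.77 with counts below 3 set to 3. It was 0.42 with nuclei of at least 1000 UMIs thinned to that depth. Many of these genes were at 0 in some fats.

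Most single limb and body-wall factors were lower in MWAT than the mean of the other fats, but their summed level was not low. Of 37 on the list, 19 had enough counts. Of these, none stood 2-fold above that mean and 7 stood 2-fold below it. The median log2 difference was -0.55, or -0.43 with counts below 3 set to 3. Above the mean, by less than 2-fold, lay 4 genes: Tshz2, Tbx2, Meox2 and Tshz1. The list summed to 3377 in MWAT, the highest, against 2906 in EWAT, 2329 in SWAT, 2853 in NWAT and 1854 in HWAT. Only 11 of the 19 had a level high enough to be compared with each other fat. Tbx15, a T-box factor of flank and subcutaneous fat, was at 4.81 in MWAT, 4.06 in EWAT, 368 in SWAT, 49.2 in NWAT and 3.11 in HWAT, so that MWAT, EWAT and HWAT stood together at the low end. Tbx5, a factor of forelimb and heart, was at 0 in MWAT and EWAT, 1.84 in SWAT, 0.964 in NWAT and 26.9 in HWAT.

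**Figure D2:**
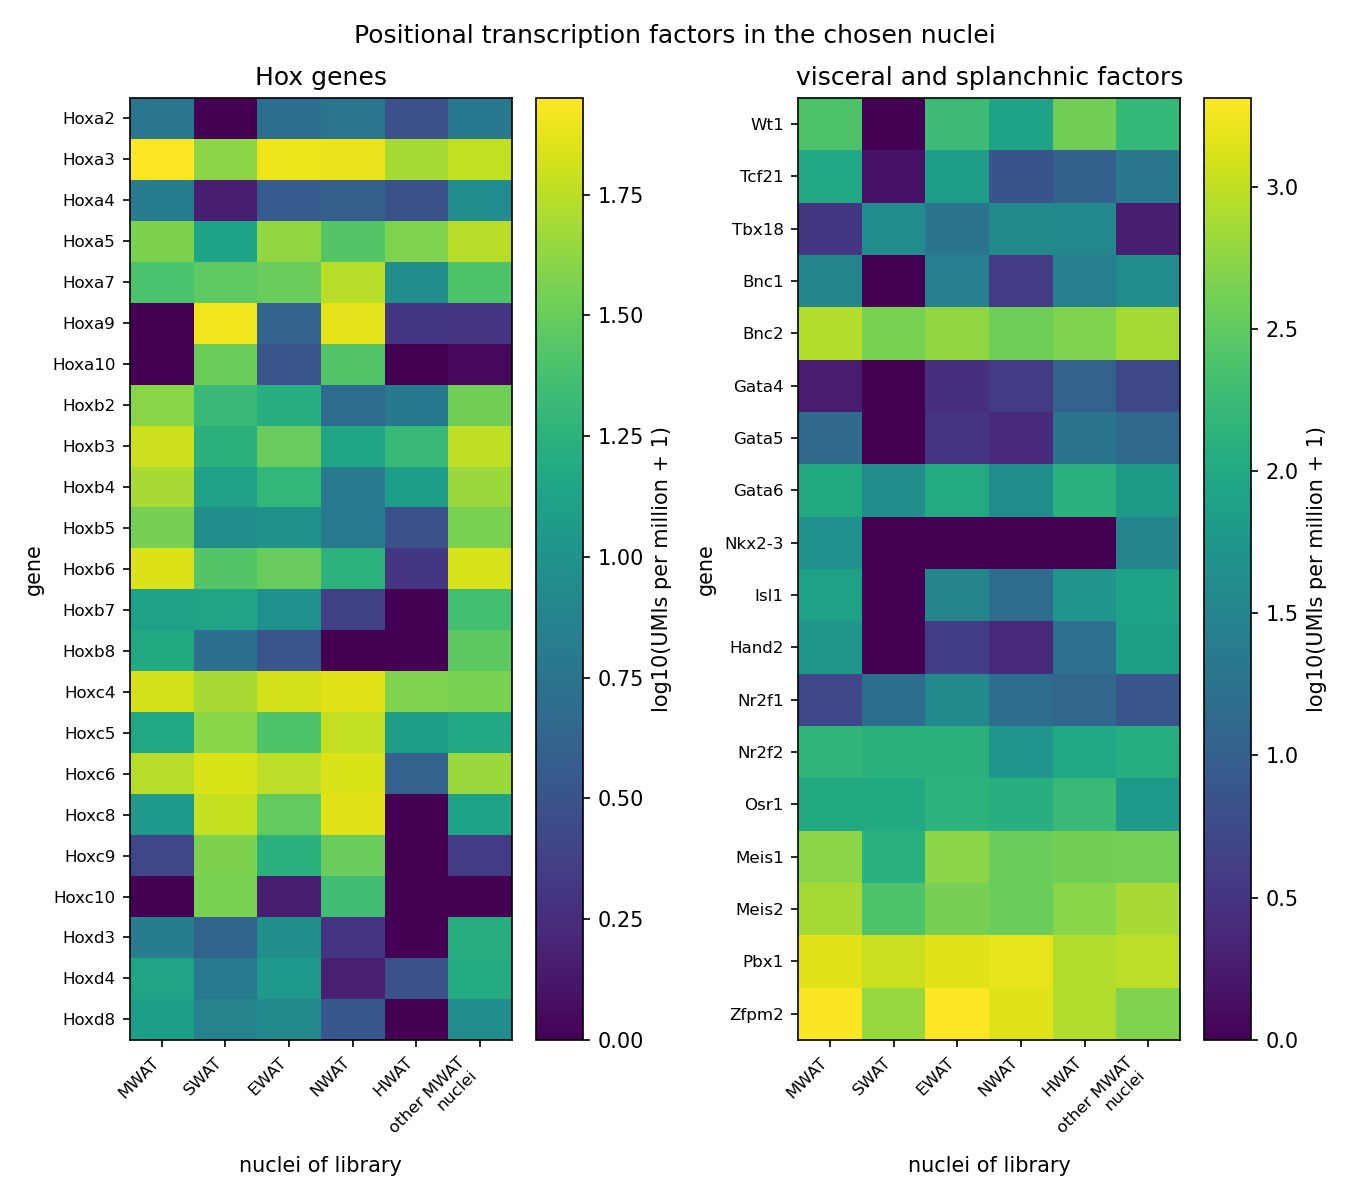
Log10 of CPM plus 1 (colour) for Hox genes and for visceral and splanchnic factors, in selected nuclei of the 5 libraries and in the other MWAT nuclei. Hoxb2 to Hoxb6 and Nkx2-3 are bright in both MWAT columns, and Hoxa9, Hoxa10 and Hoxc10 are at 0 in MWAT members and bright in SWAT and NWAT.

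Genes of the committed preadipocyte were low in MWAT stromal nuclei. Of 15 listed genes, 14 had enough counts and 13 of these had a negative log2 difference; none stood 2-fold above the mean of the other fats and 4 stood 2-fold below, with a median of -0.73. In the narrower selection the median was -0.67 and 2 genes stood 2-fold below. Pparg, the factor that drives adipocyte differentiation, was at 81.7 in MWAT, 185 in EWAT, 406 in SWAT, 325 in NWAT and 38.3 in HWAT. Lpl, the lipase that releases fatty acids from lipoproteins, was at 322 in MWAT, 633 in EWAT, 1282 in SWAT, 1343 in NWAT and 152 in HWAT. For both genes MWAT and HWAT formed the low end, and the MWAT level was 2.13 times that of HWAT for Pparg and 2.12 times for Lpl.

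Cxcl14, a chemokine of preadipocytes, was at 11.2 in MWAT, 37.9 in EWAT, 155 in SWAT, 55.4 in NWAT and 3.11 in HWAT. Col15a1, a collagen of the preadipocyte matrix, was at 115 in MWAT, 242 in EWAT, 259 in SWAT, 321 in NWAT and 174 in HWAT, lowest in MWAT. Col4a1, a basement membrane collagen, was at 361 in MWAT, 809 in EWAT, 965 in SWAT, 1263 in NWAT and 198 in HWAT. Adipocyte marker RNA, set out above, was lower in MWAT stromal nuclei than in those of SWAT, EWAT and NWAT, and its part in the levels of Pparg and Lpl was not tested. In the narrower selection Pparg was at 66.5 in MWAT and 33.5 to 373 in the other fats.

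The low end was not a general one for factors of adipogenesis. Of 26 such factors with enough counts, 3 stood 2-fold above the mean of the other fats and 1, Pparg, 2-fold below, with a median of -0.06. Ebf1, an early factor of adipose mesenchyme, was at 5385 in MWAT, the highest of the 5 fats, against 4472 in EWAT, 3723 in SWAT, 5247 in NWAT and 1112 in HWAT. Cebpa was at 28.05 in MWAT and 23.0 to 40.0 elsewhere, and Zfp423 at 43.3 and 19.7 to 64.4.

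Several secreted factors of progenitors were lower still. Fgf10, a growth factor of mesenchyme that supports preadipocytes, was at 37.7 in MWAT (interval 27.7 to 50.1), 138 in EWAT, 637 in SWAT, 247 in NWAT and 123 in HWAT. The MWAT level was 0.306 times that of HWAT, the next lowest (interval 0.213 to 0.432). Bmper, a secreted BMP regulator, was at 94.6 in MWAT, 621 in EWAT, 952 in SWAT, 829.6 in NWAT and 74.6 in HWAT. MWAT and HWAT formed the low end again, and the MWAT level was 0.0993 times that of SWAT.

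Apod, a lipid-binding apolipoprotein, was at 13.6 in MWAT, 57.3 in EWAT, 179 in SWAT, 133 in NWAT and 154 in HWAT. Mmp27, a matrix metalloproteinase, was at 4.01 in MWAT, 21.2 in EWAT, 84.6 in SWAT, 41.9 in NWAT and 15.5 in HWAT. Cpxm1, a secreted carboxypeptidase-like protein, was at 41.7 in MWAT and 99.4 to 143 elsewhere. In these 3 genes MWAT was the lowest of the 5 fats, while HWAT was the second highest for Apod.

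Hpgd, which breaks down prostaglandins, was at 88.9 in MWAT, 378 in EWAT, 416 in SWAT, 441 in NWAT and 55.9 in HWAT. Esr1, the oestrogen receptor alpha, was at 86.5 in MWAT, 197 in EWAT, 525 in SWAT, 401 in NWAT and 78.7 in HWAT. Col1a1, a fibrillar collagen, was at 728 in MWAT, 883 in EWAT, 2504 in SWAT, 1236 in NWAT and 603 in HWAT. Across 31 collagens with enough counts the median log2 difference was 0.04, or -0.31 in the narrower selection, with 9 genes 2-fold above the mean of the other fats and 4 below.

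**Figure D3:**
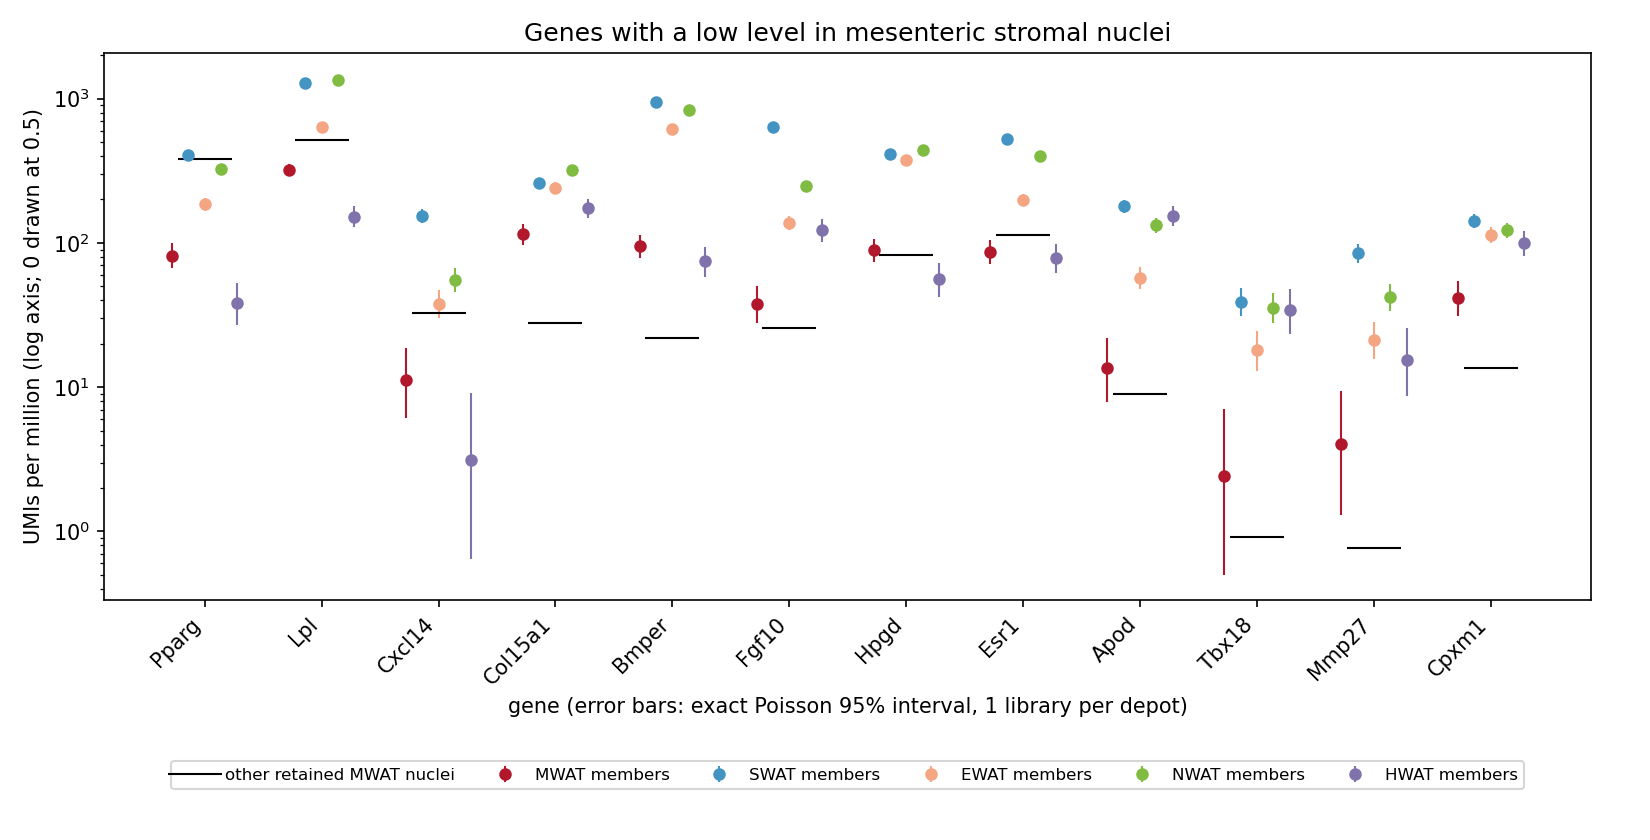
CPM (log axis) of 12 genes with a low level in MWAT stromal nuclei, by library, with exact Poisson 95% intervals; black lines give the other retained MWAT nuclei. Fgf10, Apod, Tbx18, Mmp27, Col15a1 and Cpxm1 are lowest in MWAT (red), while Pparg, Lpl, Cxcl14, Bmper, Hpgd and Esr1 are lower still in HWAT (purple).

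The other progenitor programmes stood elsewhere. Genes of the F3-type regulatory progenitor had a median log2 difference of 0.76 over 11 genes, 3 of them 2-fold above the mean of the other fats and 1 below. F3, the coagulation tissue factor, was at 257 in MWAT, 159.8 in EWAT, 159 in SWAT, 194 in NWAT and 66.3 in HWAT. Fmo2, a flavin monooxygenase, was at 384 in MWAT and 69.4 to 196 elsewhere, though mesothelial nuclei of the library held 1492. Igfbp3 was the exception at 5.61 in MWAT and 8.74 to 59.0 elsewhere. The 16 Dpp4-type genes had a median of 0.06, with 1 gene 2-fold above and 1 below: Dpp4 was at 268 in MWAT and 103 to 458 elsewhere, and Pi16 at 106 in MWAT and 72.7 to 329 elsewhere.

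Among axon guidance receptors 9 of 25 stood 2-fold above the mean of the other fats and 0 below, with a median of 0.67, and among ligands 8 of 25 and 0, with a median of 0.48. The narrower selection gave 7 receptors above and 0 below with a median of 0.53, and 8 ligands above and 2 below with a median of 0.35. Few stood 2-fold above every other fat, 1 of 14 receptors and 0 of 18 ligands, and the ligands summed to 5810 in MWAT and 5949 in EWAT. Epha3, a receptor of ephrins such as Efna5, was at 212 in MWAT, 44.7 in EWAT, 144 in SWAT, 15.4 in NWAT and 24.9 in HWAT. Sema3d, a secreted semaphorin, was at 107 in MWAT, 55.1 in EWAT, 23.9 in SWAT, 33.3 in NWAT and 88.0 in HWAT. Robo2, a Slit receptor, showed the widest gap, 127 in MWAT and 0 to 4.51 elsewhere. Of its 159 counts, 66.0% came from 57 nuclei with Schwann and smooth muscle markers, and in the narrower selection it stood at 54.1 in MWAT and 0 to 5.62 elsewhere. Plxna4, a semaphorin co-receptor, was at 244 in MWAT and 35.0 in the narrower selection.

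Wnt ligands and modulators had a median of 0.73, or 0.65 with low counts set to 3, with 10 of 22 genes 2-fold above the mean of the other fats and 2 below. Wnt5a, a ligand of the noncanonical pathway that is prominent in gut mesenchyme, was at 118 in MWAT, 47.8 in EWAT, 36.8 in SWAT, 51.1 in NWAT and 38.3 in HWAT, 2.31 times the next highest fat (interval 1.78 to 2.99). Rspo3, an R-spondin that boosts Wnt signals, was at 99.4 in MWAT, 70.4 in EWAT, 4.14 in SWAT, 10.6 in NWAT and 50.7 in HWAT, and smooth muscle nuclei of the library held 267. Sfrp2, a Wnt-binding protein, ran the other way at 18.4 in MWAT, 51.9 in EWAT, 128 in SWAT, 30.8 in NWAT and 25.9 in HWAT.

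A list of 28 genes of gut-wall fibroblasts, which holds Nkx2-3, Wnt5a, Rspo3 and F3 among others, had 23 genes with enough counts. Of these, 12 stood 2-fold above the mean of the other fats and 0 below, with a median of 1.01, or 0.82 in the narrower selection. Aldh1a2, which makes retinoic acid, was at 121 in MWAT, 28.9 in EWAT, 1.38 in SWAT, 7.23 in NWAT and 83.9 in HWAT, beside 258 in mesothelial nuclei of the library. Lepr, the leptin receptor, was at 32.1 in MWAT, 3.16 in EWAT, 2.30 in SWAT, 2.41 in NWAT and 10.4 in HWAT, beside 142 in endothelial nuclei. Hmcn1, a basement membrane protein, was at 328 in MWAT, 243 in EWAT, 4.60 in SWAT, 45.8 in NWAT and 251 in HWAT. Adamts19, a matrix protease, was at 117 in MWAT, 22.1 in EWAT, 1.38 in SWAT, 11.6 in NWAT and 70.4 in HWAT.

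Potassium channel genes had the highest median of the lists, 1.58 over 17 genes, with 11 genes 2-fold above the mean of the other fats and 1 below. The narrower selection gave a median of 1.30, with 11 above and 2 below. For several of them the counts came largely from 1 group of nuclei. Kcnq5 was at 264 in MWAT with 74.5% of its counts in the 57 nuclei named above, and at 46.2 in the narrower selection. Kcna1 was at 20.8 with 92.3% of its counts in those nuclei, and at 1.13 in the narrower selection. Kcnip1 was at 76.1 with 87.4% of its counts in nuclei with mesothelial markers, and at 7.89 in the narrower selection. The same nuclei held 85.0% of the counts of Kcnd2 and 83.9% of those of Kcnd3, at 102 and 24.8 in all MWAT stromal nuclei and 13.5 and 4.51 in the narrower selection. Kcnc2 was the low member, at 0.801 in MWAT and 191 in NWAT. Col11a1 and Col4a6 turned direction in the narrower selection, from log2 differences of 2.69 and 1.70 to -0.57 and -0.18.

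**Figure D4:**
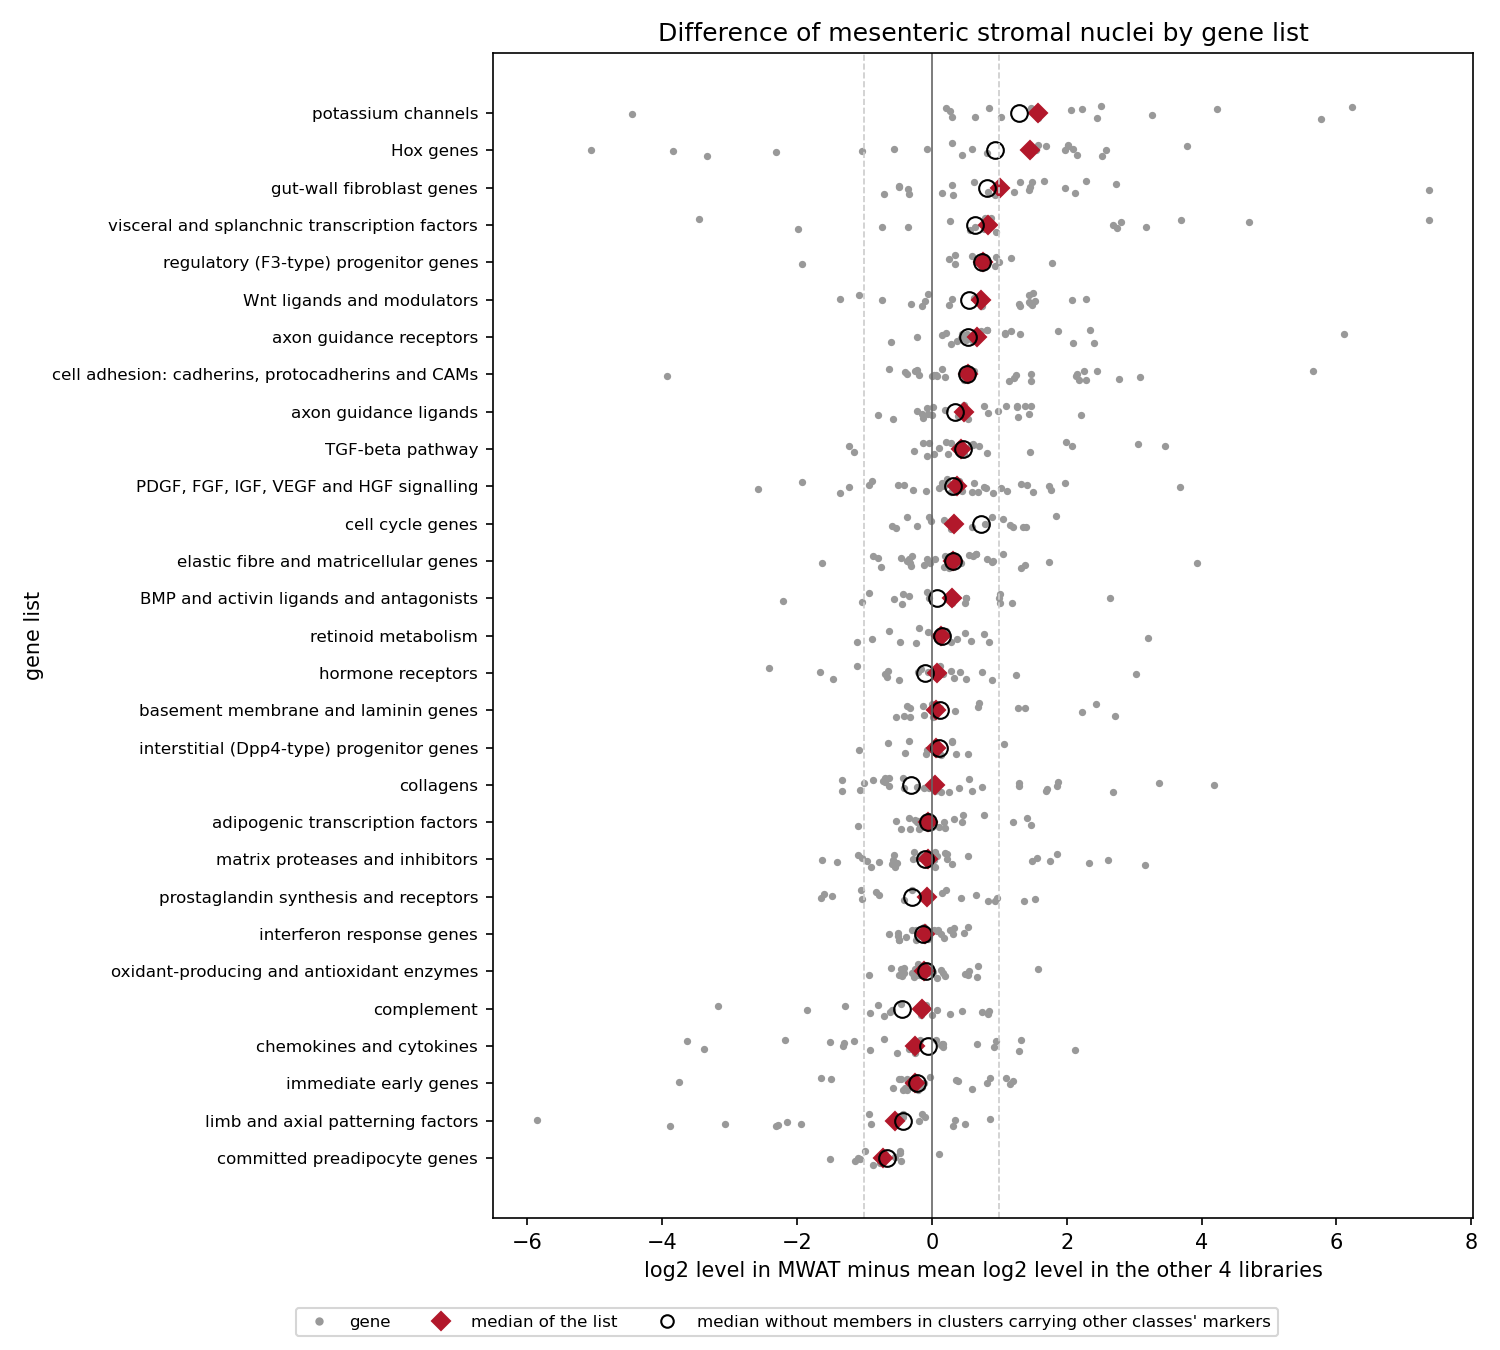
Log2 level in MWAT stromal nuclei minus the mean log2 level in the other 4 fats, for each gene (grey), the median of each list (red) and the median without nuclei in clusters carrying other classes' markers (open circle). Potassium channels (1.58) and Hox genes (1.46) lie farthest to the right and committed preadipocyte genes (-0.73) farthest to the left.

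Against each of the other fats separately, 60 of 10268 genes (0.584%) were at least 2-fold higher in MWAT stromal nuclei and 42 (0.409%) at least 2-fold lower. Of the 60, 39 lay below their level in the other MWAT nuclei and 18 lay between 1 and 2 times that level. The remaining 3 were more than 2-fold above it. Adam22, a membrane protein of the ADAM family, was at 64.9 in MWAT, 10.4 in EWAT, 20.2 in SWAT, 19.8 in NWAT and 21.7 in HWAT, 2.98 times the next highest fat (interval 1.83 to 5.08) and 2.51 times the other MWAT nuclei. Gm14582 was at 38.5 in MWAT and 2.76 to 14.5 elsewhere, and Efhb, an EF-hand protein, at 36.9 in MWAT and 12.4 to 17.4 elsewhere.

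Among the rest of the 60 were genes known from gut, nerve and muscle, beside Hoxb4, Hoxb5 and Wnt5a, described above. Gal, the neuropeptide galanin, led with 1244 in MWAT and 0 to 1.04 elsewhere, but 1396 of its 1553 counts came from 1 nucleus of 5537 UMIs; without it the level was 126. The same nucleus held 35 of the 113 counts of Pcsk1n, a neuroendocrine protein. Reg3b, an antibacterial lectin of the gut lining, was at 115 in MWAT and 0 in the other fats, and at 77.3 to 128 in adipocyte, mesothelial, endothelial and smooth muscle nuclei of the library. Actg2, the smooth muscle actin of the gut wall, was at 109.8 in stromal and 1993 in smooth muscle nuclei. Smooth muscle markers supplied 5 of the 60 genes, gut lining markers 4, neuron markers 2 and Schwann markers 1. In the narrower selection, which kept the smooth muscle and gut lining RNA, 40 of the 60 were still 2-fold higher, among 74 in all.

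Of the 42 lower genes, 26 had a counting interval below 1 and 27 were still lower in the narrower selection, among 66 in all. Among the 26 were 9 genes with at least 2-fold more RNA in stromal than in other nuclei of the other fats. They included Fgf10, Apod, Tbx18, Mmp27 and Cpxm1, described above. Manf, a secretory stress protein that was not stromal by that measure, was at 61.0 in MWAT and 146 to 277 elsewhere. In pairs, MWAT stood nearest to EWAT, with 330 genes at least 2-fold higher and 311 lower in MWAT. Against SWAT the counts were 909 and 421, against NWAT 835 and 508, and against HWAT 1079 and 625.

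Within MWAT the 869 nuclei formed 7 groups when clustered alone. The groups carry no cell type names here and are called by their leading genes, which are a description of the clustering and not a test. The same holds for the counts of list genes raised 2-fold in a group. The share of all genes raised in each group is not given here, and 2-fold moves come easily in groups with few UMIs. Group 1 held 277 nuclei (31.9%) led by Chrm3, a muscarinic receptor, Bmper, Thsd7a, Sned1 and Ggt5, with Col4a1 and Ccl11 next. Of the depot's Bmper counts 80.5% lay in it, and of its Fgf10 counts 74.5%, with Fgf10 at 106 and Bmper at 288. Of 13 preadipocyte genes 4 were raised 2-fold over the other nuclei, Col15a1, Ggt5, Col4a1 and Col4a2. Pparg was at 97.1 there, still below its level in all SWAT, EWAT and NWAT stromal nuclei.

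Group 2 held 151 nuclei (17.4%) led by C7, a complement component, Gria4, Epha3, Itgbl1 and Nox4. C7 stood at 2590 there and 201 in the other MWAT stromal nuclei, Nox4 at 1671 and 251, and Epha3 at 841 and 96.7. In it 6 of 10 F3-type genes were raised, with F3 at 830 and Fmo2 at 1100.3. The larger part of the depot's Nox4 counts (54.9%) and most of its Epha3 counts (61.4%) came from this group. Group 3 held 141 nuclei (16.2%) led by Gfpt2, Limch1, Bmp6, Rgs6 and Fbn1, and 10 of 12 Dpp4-type genes were raised, with Cd55 at 613 and Sema3c at 1151. Col14a1 was at 1721 and Fbn1, the fibrillin of elastic microfibrils, at 2829. Dpp4 itself was not among the 10 raised genes. Of the 7 groups, only group 4, described below, had Dpp4 raised 2-fold.

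Group 4 held 122 nuclei (14.04%) and went against the label. It was led by Plxna4, Pkhd1l1, Nlgn1, Kcnab1 and Il1rapl1, all 11 mesothelial genes were raised, Wt1 was at 839, and Pdgfra was at 89.8, below the 91.4 of the unselected MWAT nuclei. The narrower selection left out 121 of the 122. Group 5 held 88 nuclei (10.1%) at a median of 1562 UMIs, led by Gal, Igkc, Thrsp, Pf4 and Car3, with 10 of 11 adipocyte genes raised and the macrophage gene Lyz2 among its leaders. Pparg, Fabp4, Cd36, Lpl and Apoe of the 13 preadipocyte genes were raised in it too, and 98 of its 119 Igkc counts came from 1 nucleus. Group 6 held 57 nuclei (6.56%) led by Nkain2, Kcnq5, Cadm2, Ank3 and Grik2. Pdgfra was at 2052 in it, the highest of the 7 groups, while 4 of 5 Schwann genes, 4 of 6 genes of the interstitial cell of Cajal and 6 of 10 smooth muscle genes were raised, and the narrower selection left out 53 of the 57. Group 7 held 33 nuclei (3.80%) led by Cxcl13, with Aox3 and Col15a1 (552) among its genes. Only 6 of the 33 held its 102 Cxcl13 counts, 44 of them in 1 nucleus, and 22 MWAT stromal nuclei in all held 158.

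The groups were steady to different degrees. Over 5 other settings of the clustering, between 5 and 10 groups formed. Group 4 found a close match in every one, with 91.9 to 100% overlap (shared nuclei over nuclei in either), and group 2 one of 70.5 to 93.4%. Group 7 was recovered at 97.0% with a finer resolution and at 7.76 to 15.4% otherwise, and group 5 at 15.3 to 63.8%. Group 1 was matched at 39.6 to 71.3% and group 3 at 64.7 to 91.3%, but at 30.8% when nuclei were thinned to 1000 UMIs. The position genes were read in groups 1, 2 and 3: Tcf21 was at 109, 140.1 and 80.7, and Nkx2-3 at 66.7, 57.1 and 37.6. Tbx18 was at 0 in all 3 of these groups.

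**Figure D5:**
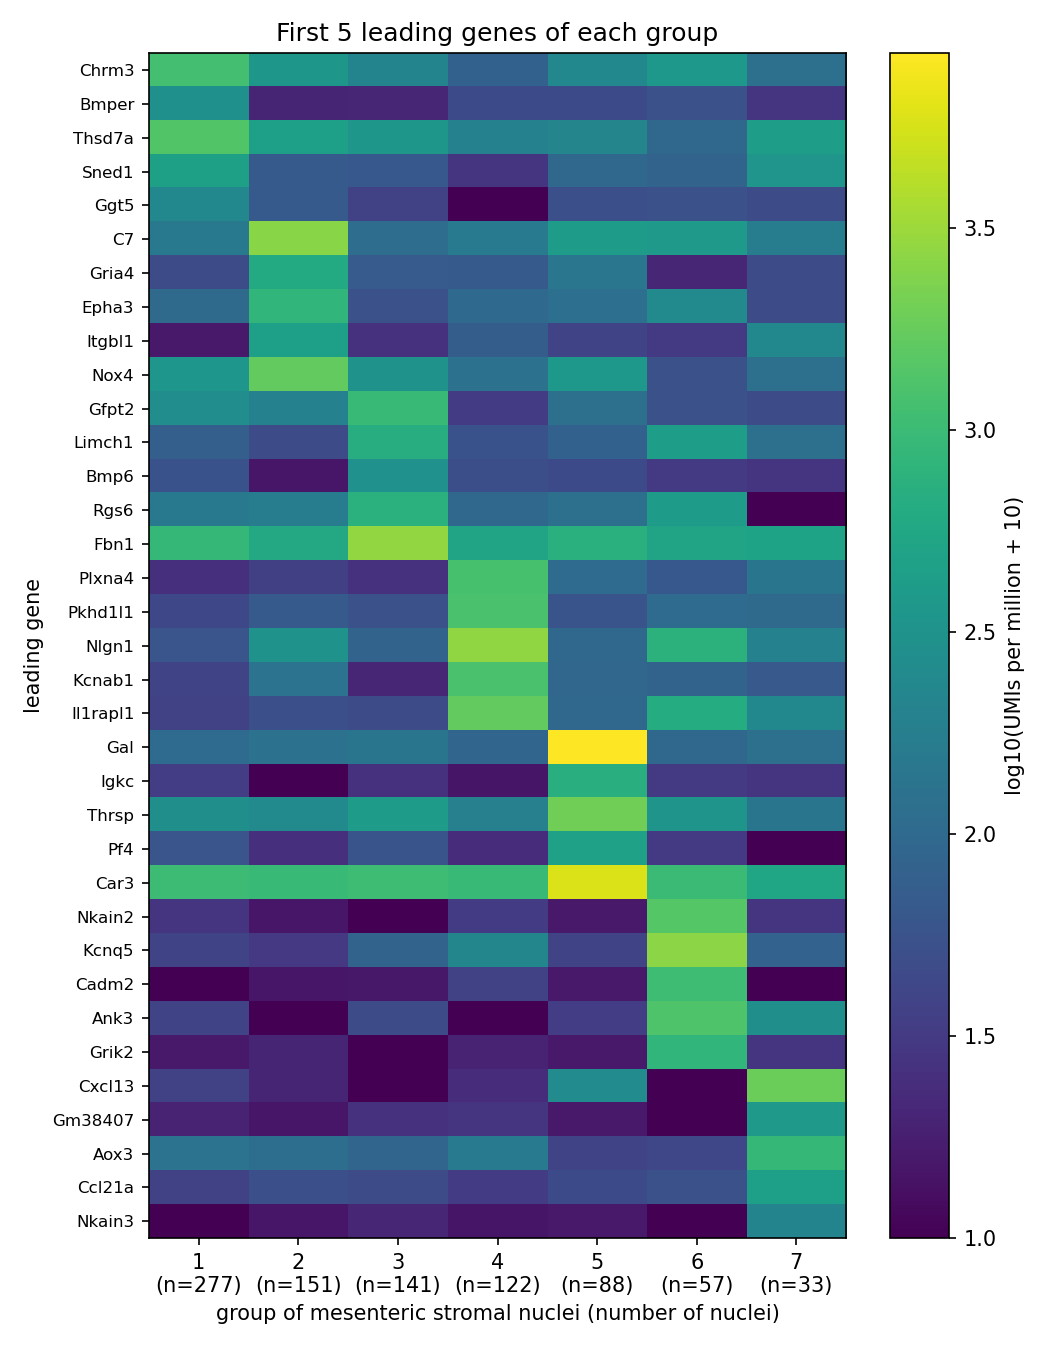
Log10 of CPM plus 10 (colour) of the first 5 leading genes of each of the 7 groups of MWAT stromal nuclei, with the number of nuclei under each group. Each group is bright in its own block; Gal and Igkc in group 5 rest mostly on 1 nucleus, and Cxcl13 in group 7 on 6.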

How the data were processed

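Nuclei of 5 fat depots, 1 pooled library each, were profiled with 10x 3′ version 3 chemistry. The authors deposited raw UMI counts per gene and nucleus, and per the file headers the software was Cell Ranger 6.0.1; the submitters' processing notes also name Seurat, without a role, and the mm10 genome. Filters behind the deposited barcodes are not given in the sources used here; the lowest deposited nucleus held 500 UMIs. Other deposited columns, barcodes and gene names, hold no measurement and have no score.

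The stromal rule was applied to the counts of each library, and counts were summed over its selected nuclei and scaled to CPM (counts per 1000000 UMIs). Selected nuclei held 1248006 UMIs in MWAT and 965670 to 2215572 elsewhere. Poisson, conditional binomial and Clopper-Pearson intervals at 95% cover counting error only, and with 1 library per depot no test was run. A gene was compared with each other fat where its mean level was at least 10 CPM and it had 20 counts, and counts under 3 were set to 3 in ratios. Log2 differences are the MWAT value minus the mean of the other 4, with 0.5 counts added, for genes with 20 counts. No doublets were called; leaving out the deepest 10% of selected nuclei stands in for that. MWAT nuclei were clustered with scanpy 1.11.5 and leidenalg 0.10.2 (1000 variable genes, 20 components, 15 neighbours, resolution 0.5). All selected nuclei together were clustered on 1500 variable genes and 25 components. Reference classes were unselected MWAT nuclei with at least 2 UMIs of Acvr1c (adipocyte), Upk1b (mesothelial) or Flt1 and Ptprb (endothelial), or at least 5 of Myh11 (smooth muscle). The computing used scikit-learn 1.9.0, pandas 2.3.3, numpy 2.4.6, scipy 1.17.1 and matplotlib 3.10.9 under python 3.11.15, and the gene comparison was tested on simulated data. Gene positions are those of the GRCm38 annotation and promoter sequences those of RefSeq.

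Named genes were the markers and rule genes, up to 15 genes higher and 15 lower than in each other fat by interval bound, split by their level in other nuclei, and up to 4 genes per list with the largest difference; further genes were named after their values were seen, among them Cebpa, Zfp423, Dpp4, Pi16, F3, Sema3d, Hoxb3, Tcf21, Esr1 and Ebf1. The nuclei, markers and gene lists were chosen with earlier results of these data known. Alternatives changed the thresholds of the rule, the depth, the scaling, the filter on low levels and the libraries compared.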

Additional observations from a re-analysis of the deposited data

How the results depend on the processing

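No paired analysis was possible because each depot is 1 pooled library of its own mice and no test was made. The 60 higher genes became 131 at a mean level of at least 5 CPM and 8 at 50, and 78 to 139 with 1 of the other libraries left out (86 without SWAT, 139 without EWAT, 78 without NWAT, 131 without HWAT). The 42 lower genes became 65 and 8 at those levels, and 62 to 131 with 1 library left out (64 without SWAT, 86 without EWAT, 62 without NWAT, 131 without HWAT). They numbered 71 with 6 marker UMIs required, 83 with no UMI of the excluded genes, 65 without nuclei carrying smooth muscle UMIs, 79 without those carrying a gut lining UMI, 77 after thinning to 1000 UMIs, 66 in the narrower selection and 147 with the rule applied at 1000 UMIs. The cause of these moves was not tested. The share of 4.40% was 3.28% with 6 marker UMIs, 3.11% with no excluded UMI, 3.96% without the deepest 10% and 3.73% at 1000 UMIs. The Hox median of 1.46 was 0.87 with no excluded UMI, 0.42 thinned, 0.87 with 3 counts added, 0.46 in the narrower selection with genes chosen anew by count, 0.13 with the rule at 1000 UMIs, and 0.88 to 1.19 with 1 library left out; the cause was not tested. The preadipocyte median of -0.73 was -0.87 without nuclei carrying a gut lining UMI and -1.27 to -0.51 with 1 library left out. The log2 differences of Col11a1 and Col4a6 turned to -0.57 and -0.18 in the narrower selection. The 11 lists with a median of at least 0.5 either way kept its sign in each of the 17 settings. Of the 11, 1 was the list of genes the rule excludes, whose UMIs the rule itself caps, so its sign is no support. Requiring no UMI of those genes set that list to 0, and the remaining 10 of 10 kept their sign there. Depth limits genes at 0: 3 counts equal 2.40 CPM in MWAT.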

Other observations

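Other gene lists gave further contrasts of the mesenteric stromal nuclei. For comparison, over all 13797 genes with enough counts 8.16% stood 2-fold above the mean of the other fats and 4.23% below it. Among 25 chemokine and cytokine genes, 3 stood 2-fold above the mean of the other fats and 7 below. Ccl8, a chemokine for monocytes, was at 1.60 CPM in MWAT, 12.6 in EWAT, 124 in SWAT, 11.6 in NWAT and 9.32 in HWAT, and Cxcl9, an interferon-induced chemokine, at 0.801 in MWAT and 4.14 to 35.9 elsewhere. Il1r1, the interleukin 1 receptor, was at 139 in MWAT and 240 to 349 elsewhere. Il33, an alarmin that supports regulatory T cells of fat, was at 124 in MWAT, 49.2 in EWAT, 13.8 in SWAT, 21.2 in NWAT and 448 in HWAT. Among 26 interferon response genes, 0 stood 2-fold away from the mean in either direction.

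Adhesion genes stood 2-fold above the mean of the other fats in 14 of 32 cases and below it in 1, Cdh9, a cadherin counted once in MWAT (0.801) and at 89.2 in SWAT and 56.9 in NWAT. In the narrower selection the counts were 9 above and 4 below. Pcdh9, a protocadherin, was at 421 in MWAT and 147 to 218 elsewhere, and at 342 in the narrower selection. Cadm2 was at 85.7 in MWAT, but at 2.26 in the narrower selection. Fos, an immediate early gene that responds to handling as well as to signals, was at 24.8 in MWAT, 52.8 in EWAT, 185 in SWAT, 13.98 in NWAT and 184 in HWAT. Cell cycle genes were 2-fold above the mean in 6 of 20 cases. Of the 33 counts of Top2a, a topoisomerase of dividing cells, 31 lay in the group of 88 nuclei with adipocyte genes. Only 5 of those 88 nuclei held the 31 counts, 13 of them in 1 nucleus.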
